A study of Homo sapiens with 2 samples.

Results

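The genes described here encode the carriers that move amino acids and nucleosides across the membranes of REH cells, a human line of B-cell acute lymphoblastic leukaemia (B-ALL). They were chosen by symbol: every protein-coding gene of the solute carrier families SLC1A, SLC3A, SLC6A, SLC7A, SLC28A, SLC29A, SLC36A, SLC38A and SLC43A in the count table, without pseudogenes. This gave 67 genes among 25702 counted features. RNA came from a PAX5 culture of the line (labelled REH-R), which expressed PAX5 and GFP from 1 tet-regulated transcript with an IRES (internal ribosome entry site) between them, and from a control culture with a tet-regulated IRES-GFP transcript lacking PAX5. Both were treated with doxycycline at 1 µg/mL for 3 days and sorted for GFP, and both also carried the line's own genome, including its endogenous PAX5 gene. The labels do not say whether either culture was a clone. Each group had 1 library, so ratios stand without replicates and without p-values. Counting intervals cover counting error only and leave out variation between cultures. They also treat reads as independent molecules, which PCR copies of reads are not.

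Leukaemia cells take up most amino acids through carriers of a few families. Sodium-coupled SLC38A carriers accumulate small neutral amino acids and glutamine, SLC1A5 exchanges glutamine with other neutral amino acids, and SLC7A light chains, held at the membrane by an SLC3A heavy chain, exchange intracellular glutamine for leucine and other large amino acids or glutamate for cystine. The availability of these amino acids is read by the kinase complex mTORC1. Equilibrative SLC29A carriers let nucleosides cross membranes down their gradient and are the route by which nucleoside drugs used against leukaemia, such as cytarabine, enter cells. PAX5, a paired-domain transcription factor, is required for B-cell commitment and is often altered in B-ALL.

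Depth was 11944765 counts with PAX5 and 10997864 for the control. PAX5 itself (Entrez 5079) reached 8319 counts with PAX5 against 2660 for the control, 2.91-fold with an exact 95% counting interval of 2.78 to 3.04. These counts do not separate introduced from endogenous PAX5 transcript. All 7 B-precursor markers checked were detected in both libraries, among them DNTT (19209 counts with PAX5 and 20376 in the control) and EBF1 (7945 with PAX5 and 7354 in the control). Of 8 markers of other cells, 6 had at most 3 counts in either library, among them CD3D and HBA1 at 0 in both. The other 2 were the myeloid gene MPO (554 counts with PAX5 and 1138 in the control) and the stromal gene COL1A1 (115 with PAX5 and 93 in the control). Summed, these 8 markers had 671 counts with PAX5 and 1236 in the control, and their part in the transporter results was not tested. In bulk RNA, fewer cells of a type and less RNA per cell cannot be told apart.

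Of the 67 transporter genes, 34 had at least 10 counts over both libraries, 11 had between 1 count and that minimum, and 22 had 0 counts in both. The rule of size required that the interval's bound nearest to equality be at or beyond 2-fold. By this rule 1 of the 34 was higher in the PAX5 library, SLC6A12, and 0 were lower, beside 1.34% higher and 0.0517% lower among all 13532 features tested. Without that limit, the log2 intervals of 5 of the 34 lay above 0 and those of 8 lay below 0, against 18.7% and 16.8% of all features tested. The balance over all features turned with the scaling: 2527 lay above and 2274 below here, against 2373 and 2486 under total counts and 2176 and 2785 under the upper quartile. By the point ratio alone, 4 (SLC6A12, SLC6A16, SLC38A5 and SLC43A2) were at least 1.5-fold higher and 2 (SLC6A9 and SLC29A3) at least 1.5-fold lower, beside 7.83% and 5.52% of all features. The median log2 ratio of the 34 was -0.09, beside -0.01 over all features, while their mean was 0.07 because SLC6A12 alone lay far above the rest. Counts of all 67 genes together came to 32023 with PAX5 and 28898 in the control, a log2 ratio of 0.04 (0.02 to 0.07). This sum was not repeated under the other scalings, so a ratio this small cannot be told from 0. Upper-quartile scaling moved the median of the 34 from -0.09 to -0.12. A log2 interval extended 0.60 either way for a gene with 100 counts in all and 0.18 for one with 1000, so small ratios can be read only for the abundant carriers.

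**Figure D1:**
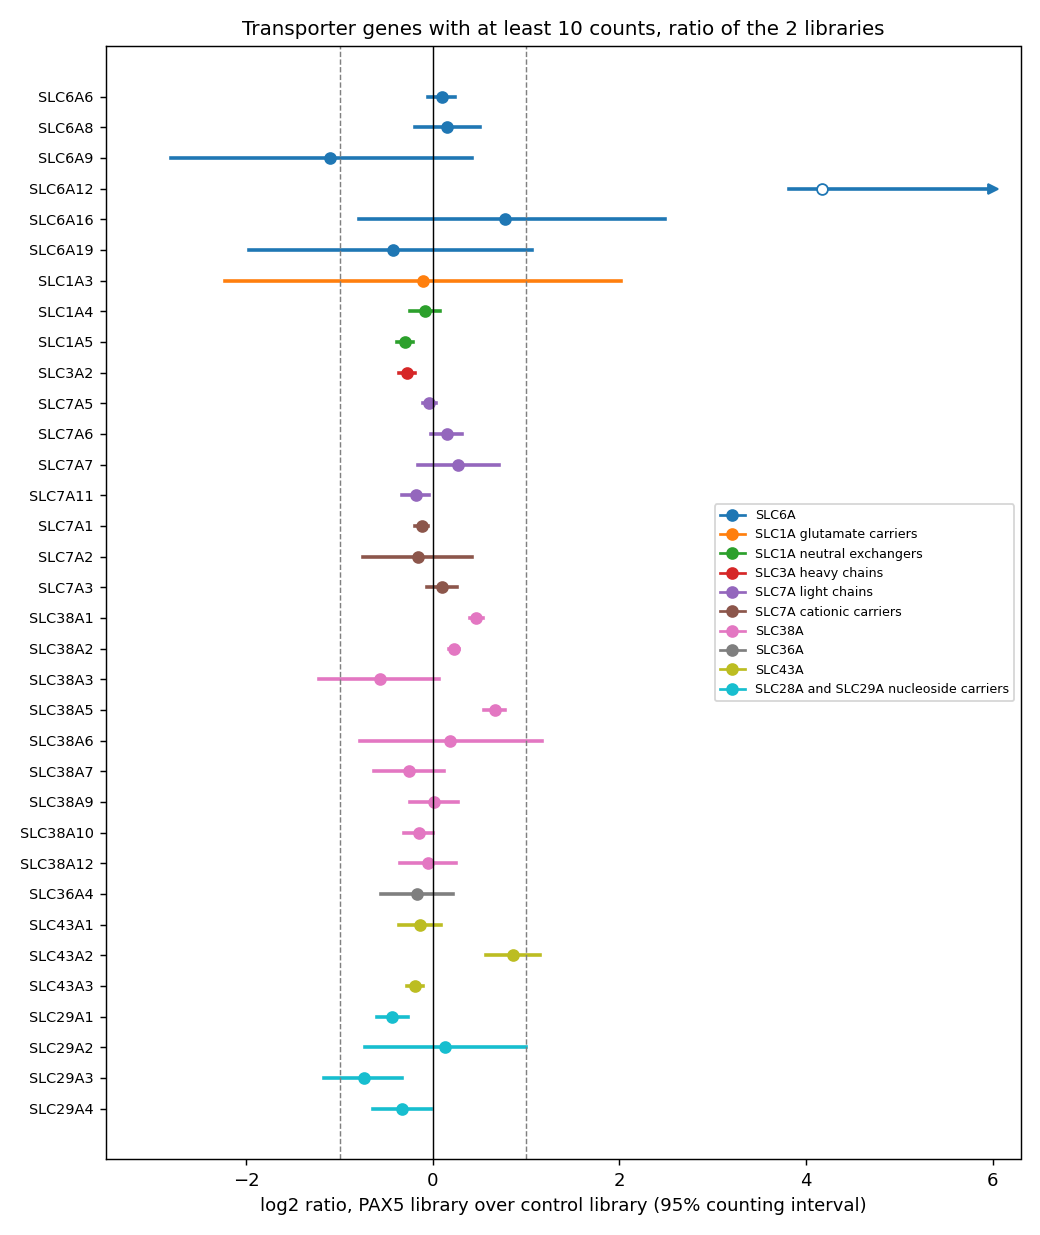
Log2 ratio of the PAX5 library over the control library for the 34 transporter genes with at least 10 counts, coloured by group, with lines for the exact 95% counting interval and dashed lines at 2-fold. SLC6A12 (open point, at the floor of 3 counts, interval open to the right) alone lies wholly beyond 2-fold. SLC38A1, SLC38A2, SLC38A5 and SLC43A2 lie above 0, and SLC1A5, SLC3A2 and SLC29A3 are among the 8 below.

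Promoter sequences are given for SLC38A1, SLC38A2, SLC38A5 and SLC43A2, which had the clearest higher ratios after SLC6A12, and for SLC29A1, the main nucleoside carrier, which was lower; they were picked after these values were seen. Each is the 250 bases before the start of the gene annotated by RefSeq on GRCh38.p14, read 5′ to 3′ on the gene's strand, and other starts of these genes may be in use in REH cells. Capitals mark the E-box CACGTG, the letters bound by MYC and related factors.
SLC38A1 (chr12:46266517-46266766, minus strand): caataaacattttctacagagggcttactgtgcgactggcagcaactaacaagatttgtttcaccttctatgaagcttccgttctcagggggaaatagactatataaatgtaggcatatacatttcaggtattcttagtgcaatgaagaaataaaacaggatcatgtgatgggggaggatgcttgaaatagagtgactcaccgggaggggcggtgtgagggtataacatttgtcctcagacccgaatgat
SLC38A2 (chr12:46372774-46373023, minus strand): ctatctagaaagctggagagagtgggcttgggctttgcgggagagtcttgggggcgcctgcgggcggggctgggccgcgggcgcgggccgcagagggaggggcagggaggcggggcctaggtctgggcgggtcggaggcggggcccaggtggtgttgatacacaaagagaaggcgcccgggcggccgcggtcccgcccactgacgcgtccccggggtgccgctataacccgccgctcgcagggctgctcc
SLC38A5 (chrX:48470261-48470510, minus strand): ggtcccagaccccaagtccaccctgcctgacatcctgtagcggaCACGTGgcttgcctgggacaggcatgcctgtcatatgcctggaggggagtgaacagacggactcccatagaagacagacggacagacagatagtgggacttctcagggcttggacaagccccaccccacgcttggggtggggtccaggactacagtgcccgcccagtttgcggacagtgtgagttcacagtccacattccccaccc
SLC43A2 (chr17:1605035-1605284, minus strand): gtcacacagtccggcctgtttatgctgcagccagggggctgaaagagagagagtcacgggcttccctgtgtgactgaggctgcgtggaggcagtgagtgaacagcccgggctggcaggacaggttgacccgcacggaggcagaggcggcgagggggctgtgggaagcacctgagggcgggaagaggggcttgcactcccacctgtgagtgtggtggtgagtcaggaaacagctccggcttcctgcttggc
SLC29A1 (chr6:44219365-44219614, plus strand): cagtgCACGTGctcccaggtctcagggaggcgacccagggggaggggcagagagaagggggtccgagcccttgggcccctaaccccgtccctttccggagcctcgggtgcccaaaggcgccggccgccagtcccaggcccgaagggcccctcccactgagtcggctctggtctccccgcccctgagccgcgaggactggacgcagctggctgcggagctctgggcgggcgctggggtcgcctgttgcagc
Promoters of 49 of the 67 genes were matched, 26 of them among the 34 with at least 10 counts, and each window was searched on both strands. The E-box was present in 6 of the 49 (12.2%), and in 6.49% of 27305 promoters, which were not chosen by expression. Of the 26 with at least 10 counts, 5 held it (SLC6A16, SLC7A5, SLC29A1, SLC38A5 and SLC43A1). The carriers that hold it include SLC38A5, higher with PAX5, and SLC29A1, lower with PAX5. The letters TGATGNAA of the amino acid response element were found in SLC1A3 alone of the 49, beside 3.19% of all promoters. At so low a share their absence from the other promoters cannot be read, and sites outside the 250 bases were not searched. The letters GCGTGAC, taken from the paired-domain consensus, were found in none of the 26 and in 2.27% of all promoters. That share is too low for their absence from 26 promoters to be read. Among all 49 matched genes 2 held them, SLC6A5 and SLC6A7, both under 10 counts. SLC6A12, the only gene past the rule, had no matched promoter and was not searched. The same holds for SLC6A6, SLC7A2, SLC7A3, SLC7A11, SLC29A2, SLC38A3 and SLC43A3. The promoter GC content of the printed sequences ranged from 42.4% for SLC38A1 to 73.6% for SLC38A2, so the neighbouring pair SLC38A1 and SLC38A2 differ in this respect.

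The SLC6A family, sodium- and chloride-coupled carriers of neurotransmitters, osmolytes and amino acids, held the only gene past the rule. SLC6A12 (Entrez 6539), the betaine and GABA carrier that many cells use to take up the osmolyte betaine, had 58 counts (4.88 CPM, counts scaled to library size) with PAX5 against 0 counts in the control. The control library is thus below the 0.272 CPM that 0 counts allow. Over a floor of 3 counts in the control, SLC6A12 was 18.0-fold higher with PAX5, and the lower bound of its interval was 14.2-fold. Even so its level per length was low, at 1.28 RPKM (CPM per kilobase of gene length) in the PAX5 library, which placed it at rank 26 of the 34. Its neighbour on chromosome 12, SLC6A13, a GABA and taurine carrier of the same family, had 0 counts in both libraries.

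The SLC6A carriers with higher levels were close between the libraries. SLC6A6, the taurine carrier, had 835 counts with PAX5 and 727 in the control, a log2 ratio of 0.09 (-0.05 to 0.24). SLC6A8, the creatine carrier, had 153 counts with PAX5 and 128 in the control, a log2 ratio of 0.15 (-0.20 to 0.50). A near-identical copy, SLC6A10P, had 6 counts with PAX5 and 3 in the control, and the counting may have split or lost reads between it and SLC6A8. SLC6A9, the glycine carrier, had 6 counts with PAX5 and 12 in the control, and its log2 ratio of -1.11 had an interval of -2.81 to 0.42. It overlaps CCDC24 (26 counts with PAX5, 38 in the control). SLC6A16, an orphan member, had 11 counts with PAX5 and 6 in the control, but it overlaps CD37, with 362 counts with PAX5 and 131 in the control, and reads of overlapping genes cannot be told apart without a known strand setting. SLC6A19, a carrier of neutral amino acids known from kidney and intestine, had 8 counts with PAX5 and 10 in the control. Monoamine carriers were barely detected, with SLC6A3 at 2 counts in each library and SLC6A2 and SLC6A4 at 0. Of the others, SLC6A18 had 3 counts with PAX5 and 0 in the control, SLC6A20 had 5 with PAX5 and 1 in the control, SLC6A5 had 0 with PAX5 and 1 in the control, and SLC6A7, SLC6A11, SLC6A14, SLC6A15 and SLC6A17 had 0 in both.

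The SLC38A family of glutamine and small neutral amino acid carriers was the most abundant group, and 3 of its genes, SLC38A1, SLC38A2 and SLC38A5, were higher with PAX5. The family's summed counts were 13593 with PAX5 against 10223 in the control, a log2 ratio of 0.31 (0.27 to 0.34). This sum was not repeated under the other scalings, after centring or with an assumed variation between cultures. The family held 42.4% of all transporter counts with PAX5 (exact binomial 95% interval 41.9% to 42.99%) and 35.4% in the control (34.8% to 35.9%). Among its 9 measured members, the intervals of 3 lay above 0 and of none below, beside 18.7% and 16.8% of all features, and after centring on length and level 1, SLC38A10, lay below. The 3 higher genes together held 12294 of the group's counts with PAX5 and 8910 in the control, while the rest of the family had 1299 with PAX5 and 1313 in the control. The median log2 ratio of the 9 was 0.01.

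SLC38A5 (Entrez 92745), which exchanges glutamine, asparagine, histidine and serine with sodium against protons, had 1730 counts (145.5 CPM) with PAX5 and 1015 counts (91.9 CPM) in the control. It was 1.58-fold higher (1.46 to 1.71), or 0.66 on the log2 scale (0.55 to 0.78), and by RPKM it ranked 2 among the 34 genes with PAX5 and 6 in the control. SLC38A1 (Entrez 81539), a sodium-coupled glutamine carrier, had 4242 counts (356.8 CPM) with PAX5 and 2856 counts (258.5 CPM) in the control, 1.38-fold (1.32 to 1.45). SLC38A2 (Entrez 54407), which is known to be induced when amino acids run short, had 6322 counts (531.7 CPM) with PAX5 and 5039 counts (456.1 CPM) in the control, 1.17-fold (1.12 to 1.21). SLC38A2 was the most abundant transporter per length in both libraries, at 108.9 RPKM with PAX5 and 93.4 RPKM in the control. SLC38A1 and SLC38A2 are adjacent on chromosome 12. The next carrier there, SLC38A4, had 4 counts with PAX5 and 0 in the control.

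The other SLC38A genes had intervals that included 0. SLC38A9, a lysosomal arginine sensor of mTORC1, had 263 counts with PAX5 and 243 in the control, a log2 ratio of 0.01 (-0.25 to 0.27). SLC38A7, a lysosomal glutamine and asparagine exporter, had 116 counts with PAX5 and 129 in the control, a ratio of -0.26 (-0.63 to 0.11). SLC38A10 had 666 counts with PAX5 and 688 in the control, and its interval of -0.31 to 0.00 only just reached 0. SLC38A12, the symbol that the RefSeq table gives to Entrez 54868, had 191 counts with PAX5 and 184 in the control, and SLC38A3, a glutamine carrier known from liver, had 37 with PAX5 and 51 in the control. SLC38A6 had 22 counts with PAX5 and 18 in the control and overlaps TRMT5 (153 with PAX5 and 194 in the control), so its few reads are uncertain. SLC38A8 and SLC38A11 had 0 counts in both libraries.

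The glutamine exchanger SLC1A5 and the heavy chain SLC3A2 were lower with PAX5, by less than 1.5-fold. SLC1A5 (Entrez 6510), the glutamine exchanger also called ASCT2, had 2231 counts (187.6 CPM) with PAX5 and 2550 counts (230.8 CPM) in the control, 1.23-fold lower (1.16 to 1.30). SLC1A4, which exchanges alanine, serine and cysteine, had 634 counts with PAX5 and 623 in the control, a log2 ratio of -0.08 (-0.24 to 0.08). SLC3A2 (Entrez 6520), the CD98 heavy chain that brings several light chains to the membrane, had 1948 counts (163.8 CPM) with PAX5 and 2195 counts (198.7 CPM) in the control, 1.21-fold lower (1.14 to 1.29). The kidney heavy chain SLC3A1 had 1 count with PAX5 and 2 in the control. The glutamate carriers of nerve and epithelial cells were barely detected: SLC1A3 had 5 counts in each library and SLC1A1, SLC1A2, SLC1A6 and SLC1A7 had 0.

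Light chains had ratios on both sides of 0, and 1 of the 4 measured had an interval off 0, below it. Among all features tested, 18.7% lay above 0 and 16.8% below. SLC7A5 (Entrez 8140), the leucine carrier LAT1 and the most abundant light chain per length, had 3634 counts (67.3 RPKM) with PAX5 and 3463 counts (69.0 RPKM) in the control, a log2 ratio of -0.04 (-0.10 to 0.03). Its interval did not overlap that of SLC3A2, which ran from -0.37 to -0.19. After centring on length and level the 2 intervals nearly met, at -0.146 to -0.011 for SLC7A5 and -0.325 to -0.147 for SLC3A2. With an assumed coefficient of variation of 0.2 between cultures they overlapped, at -0.84 to 0.77 for SLC7A5 and -1.08 to 0.53 for SLC3A2. SLC7A5 has partial copies counted as SLC7A5P1 (6 counts with PAX5, 9 in the control) and SLC7A5P2 (11 with PAX5, 18 in the control), both far below it. SLC7A11, the cystine and glutamate exchanger that supplies cysteine for glutathione, had 768 counts with PAX5 and 811 in the control, a log2 ratio of -0.18 (-0.33 to -0.04). Its antisense gene SLC7A11-AS1 had 3 counts in each library. SLC7A6 and SLC7A7, exchangers of cationic for neutral amino acids, had intervals that included 0. SLC7A6 had 622 counts with PAX5 and 522 in the control, with a log2 interval of -0.02 to 0.32. SLC7A7 had 105 counts with PAX5 and 81 in the control, with an interval of -0.16 to 0.71. SLC7A6 overlaps SLC7A6OS on the opposite strand (66 counts with PAX5, 54 in the control). Among the rest, SLC7A8 had 4 counts with PAX5 and 1 in the control, SLC7A9 had 1 with PAX5 and 0 in the control, and SLC7A10 and SLC7A13 had 0 in both.

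Among the cationic amino acid carriers, which supply arginine and lysine, 1 of 3 measured had an interval off 0, below it. This stands beside 18.7% above 0 and 16.8% below among all features tested. SLC7A1 (Entrez 6541), the general arginine carrier, had 3169 counts with PAX5 and 3199 in the control, a log2 ratio of -0.12 (-0.19 to -0.05). SLC7A3 had 659 counts with PAX5 and 572 in the control, a ratio of 0.10 (-0.07 to 0.26), and SLC7A2 had 51 with PAX5 and 53 in the control. SLC7A4 and SLC7A14 had 0 counts in both libraries. The SLC36A carriers move amino acids across lysosomal and plasma membranes. Of these only SLC36A4 passed the minimum, at 112 counts with PAX5 and 117 in the control, a ratio of -0.17 (-0.56 to 0.22). SLC36A1 had 1 counts with PAX5 and 6 in the control, SLC36A3 had 1 with PAX5 and 0 in the control, and SLC36A2 had 0 in both.

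**Figure D2:**
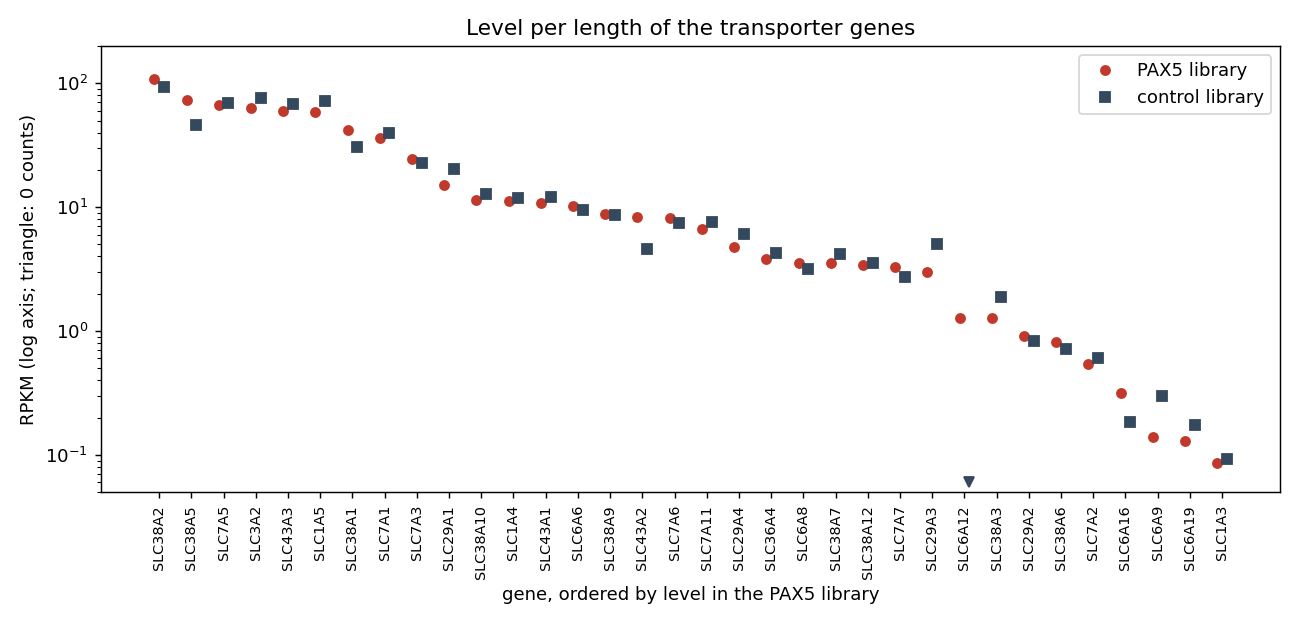
RPKM, scaled counts per kilobase of gene length (log axis), of the 34 transporter genes with at least 10 counts, ordered by the level with PAX5, in the PAX5 library (circles) and the control library (squares). The same 8 genes, SLC38A2 to SLC7A1, exceed 30 RPKM in both libraries, and SLC6A12 has a triangle for 0 counts in the control.

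The 3 SLC43A genes, sodium-independent carriers, went different ways. SLC43A2 (Entrez 124935), a facilitated carrier of leucine and other large neutral amino acids, had 297 counts (25.0 CPM) with PAX5 and 152 counts (13.8 CPM) in the control. It was 1.82-fold higher (1.49 to 2.22), the largest ratio among transporters with at least 100 counts, and it did not pass the rule. SLC43A1, a carrier of the same substrates, had 323 counts with PAX5 and 331 in the control, a log2 ratio of -0.14 (-0.37 to 0.08), and this interval lay below that of SLC43A2 (0.57 to 1.15). SLC43A3, which carries purine nucleobases such as adenine, had 2002 counts with PAX5 and 2127 in the control, a ratio of -0.19 (-0.28 to -0.10).

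Nucleoside carriers had summed counts of 781 with PAX5 against 978 in the control, a log2 ratio of -0.43 (-0.57 to -0.29). This sum too was not repeated under the other scalings, after centring or with an assumed variation between cultures. Of 4 measured members, 3 had intervals below 0 and none above, beside 16.8% and 18.7% of all features, and none passed the rule. After centring on length and level 2 of the 4 lay below 0, SLC29A1 and SLC29A3. SLC29A1 (Entrez 2030), the main plasma membrane nucleoside carrier and the entry route of cytarabine, had 507 counts (42.6 CPM) with PAX5 and 636 counts (57.6 CPM) in the control, 1.35-fold lower (1.20 to 1.52). SLC29A3 (Entrez 55315), a lysosomal nucleoside carrier, had 81 counts (6.81 CPM) with PAX5 and 126 counts (11.4 CPM) in the control, 1.67-fold lower (1.26 to 2.24). SLC29A4, which carries monoamines at the plasma membrane, had 165 counts with PAX5 and 193 in the control, 1.26-fold lower (1.02 to 1.56), and it overlaps TNRC18 (1616 with PAX5, 1583 in the control). SLC29A2 had 27 counts with PAX5 and 23 in the control, a log2 ratio of 0.13 (-0.73 to 0.99). The concentrative carriers, which pump nucleosides with sodium, had at most 1 count, with SLC28A2 at 1 count with PAX5 and 0 in the control and SLC28A1 and SLC28A3 at 0 in both.

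**Figure D3:**
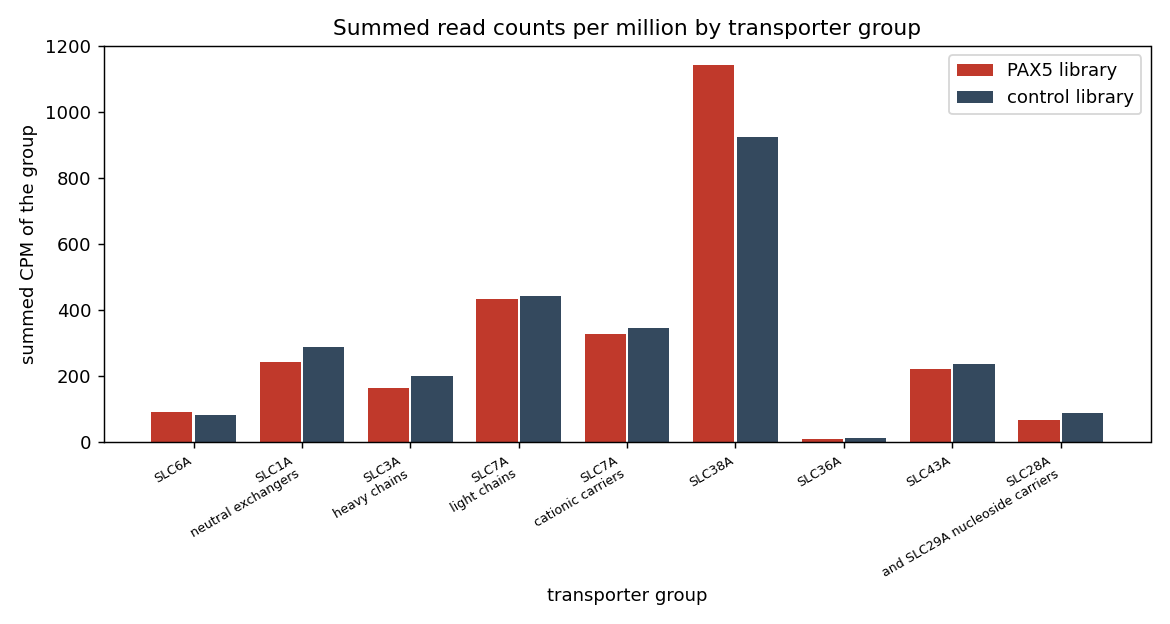
Summed CPM (library-scaled counts) of 9 transporter groups in the PAX5 library (left bar) and the control library (right bar), without the SLC1A glutamate carriers, which had 5 counts in each. SLC38A carriers sum to 1143 CPM with PAX5 and 925.2 CPM in the control, while the nucleoside carriers sum to 65.7 CPM with PAX5 and 88.5 CPM in the control.

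Gene length moved with the ratio in these libraries. Among features with at least 100 counts divided into 10 groups by length, the median log2 ratio was -0.20 in the shortest group (median 942 bases) and 0.19 in the longest (8295 bases). SLC38A1, at 8487 bases, lies at the long end, and after its ratio was centred on features of like length and level it was 0.28 (0.21 to 0.35) on the log2 scale, where 0.46 stood before. SLC38A5 is short, at 1989 bases, and its centred ratio was larger, 0.77 (0.66 to 0.89). The centred ratio was 0.18 for SLC38A2, 0.89 for SLC43A2, -0.28 for SLC1A5, -0.24 for SLC3A2 and -0.39 for SLC29A1, so these kept their side of 0. The long genes SLC7A1 (7343 bases) and SLC7A11 (9648 bases) had centred ratios of -0.31 and -0.37. In the same comparison SLC29A4 had an interval that included 0 (-0.62 to 0.00), and SLC7A3, SLC7A5 and SLC38A10 had intervals off 0.

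**Figure D4:**
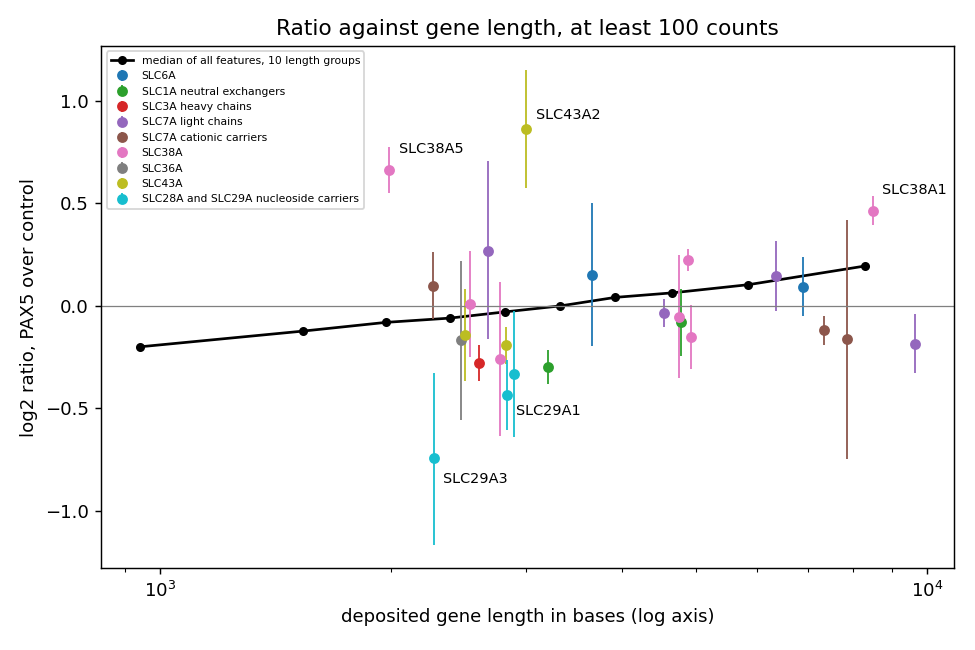
Log2 ratio of the PAX5 library over the control library against deposited gene length (log axis) for the 26 transporter genes with at least 100 counts, with 95% counting intervals. The black line joins the medians of all features in 10 length groups, from -0.20 to 0.19. SLC38A5 and SLC43A2 lie well above the line, and SLC29A1 and SLC29A3 lie below it.

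Counting intervals are narrow for abundant genes, so the shares of intervals off 0 were also compared at like abundance. At 100 counts or more, 4 of 26 transporter intervals lay above 0 and 8 below, beside 21.2% and 20.0% of 10672 such features. Variation between cultures is not measured here. If a biological coefficient of variation of 0.2 were assumed in addition to counting error, 2 of the 34 intervals would remain off 0. These are the intervals of SLC6A12 and SLC43A2, and that of SLC43A2 would only just do so, at 0.01 to 1.71. This assumption was not repeated under the other scalings. It was not applied to all features either, so no background share stands beside the count.

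Genes that use, sense or replace what these carriers transport were described by 5 further lists. Their counts of intervals stand beside 18.7% above 0 and 16.8% below 0 among all features tested, or 2214 above and 1865 below of 13532 after centring on length and level. Median counts of the lists ran from 415 (lysosomal) to 1925 (glutamine), against 652 over all features tested. Among 5339 features with at least 1000 counts, the shares were 28.7% above and 25.0% below. Of 17 measured lysosomal and other amino acid carriers, 5 had intervals above 0 and 1 below, beside 18.7% and 16.8% of all features, with a median of 0.00 and none past the rule. CTNS, the lysosomal cystine exporter, had 338 counts with PAX5 and 154 in the control, 2.04-fold (1.68 to 2.48). SLC66A1, a lysosomal exporter of cationic amino acids, had 133 counts with PAX5 and 81 in the control, 1.53-fold (1.15 to 2.04), and SFXN3, a mitochondrial serine carrier, had 247 with PAX5 and 165 in the control, 1.39-fold (1.14 to 1.70). SLC25A38, a mitochondrial glycine carrier, was the member below 0, with 194 counts with PAX5 and 221 in the control, and after centring 5 intervals lay above 0 and 0 below.

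Of 36 genes of amino acid sensing upstream of mTORC1, 9 had intervals above 0 and 11 below, beside 18.7% and 16.8% of all features, and the median was 0.01. After centring 8 lay above and 8 below. CASTOR2, a relative of an arginine sensor, passed the rule with 26 counts with PAX5 and 3 in the control, 8.05-fold (2.47 to 41.6), but near-identical copies of this gene make its counts uncertain. RPTOR, the scaffold of mTORC1, had 1085 counts with PAX5 and 714 in the control, 1.41-fold (1.28 to 1.55), and SAMTOR, a sensor of S-adenosylmethionine, had 884 with PAX5 and 672 in the control, 1.22-fold (1.10 to 1.35). On the other side, LAMTOR4, a subunit of the lysosomal Ragulator complex, had 363 counts with PAX5 and 467 in the control, a log2 ratio of -0.47 (-0.67 to -0.27), and MLST8, an mTOR subunit, had 333 with PAX5 and 403 in the control, a ratio of -0.38 (-0.59 to -0.17).

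Of 22 measured genes of nucleoside salvage and breakdown, 11 had intervals below 0 and 1 above, beside 16.8% and 18.7% of all features, with a median of -0.13 and none past the rule. The list's median was 1120 counts, and at 1000 counts or more 25.0% of features lay below 0 and 28.7% above. NT5C, a nucleotidase, had 149 counts with PAX5 and 224 in the control, a log2 ratio of -0.69 (-1.003 to -0.389). ADA, which deaminates adenosine, had 2076 counts with PAX5 and 2753 in the control, a ratio of -0.51 (-0.60 to -0.43). APRT, which salvages adenine, had 547 counts with PAX5 and 709 in the control, a ratio of -0.48 (-0.64 to -0.32). The exception was SAMHD1, which breaks down deoxynucleotides and also inactivates cytarabine triphosphate, with 277 counts with PAX5 and 106 in the control, 2.43-fold (1.93 to 3.07). After centring 5 of the 22 intervals lay below 0 and 1 above.

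Of 20 measured genes of glutamine, cystine and glutathione use, 7 had intervals above 0 and 4 below, beside 18.7% and 16.8% of all features, with a median of 0.03 and none past the rule. CTH, which makes cysteine from cystathionine, had 103 counts with PAX5 and 58 in the control, 1.65-fold (1.18 to 2.32). GOT2, the mitochondrial aspartate aminotransferase, had 2771 with PAX5 and 2147 in the control, 1.20-fold (1.13 to 1.27). GSS, glutathione synthetase, had 719 with PAX5 and 792 in the control, a log2 ratio of -0.25 (-0.39 to -0.10). After centring 4 of the 20 intervals lay above 0 and 3 below, shares near those of all features. Of 24 measured genes of amino acid synthesis and the ATF4 response to amino acid shortage, 3 had intervals above 0 and 8 below, beside 18.7% and 16.8% of all features (3 above and 6 below after centring), with a median of -0.00457 and none past the rule. CEBPB, a transcription factor, had 592 counts with PAX5 and 290 in the control, 1.90-fold (1.65 to 2.19). EIF2AK4, the kinase GCN2 that senses uncharged tRNA, had 1058 with PAX5 and 768 in the control, 1.28-fold (1.17 to 1.41). PHGDH, the entry enzyme of serine synthesis, had 6008 with PAX5 and 6638 in the control, a log2 ratio of -0.25 (-0.30 to -0.20), and EIF2AK3, the endoplasmic reticulum stress kinase PERK, had 2050 with PAX5 and 2425 in the control, a ratio of -0.35 (-0.43 to -0.26).

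**Figure D5:**
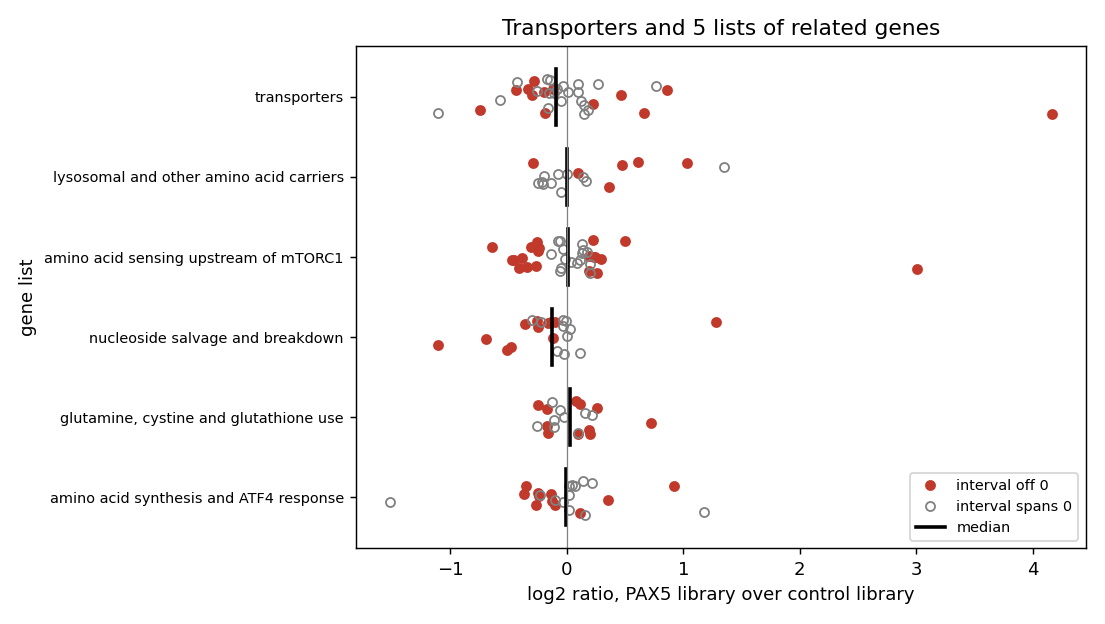
Log2 ratio of the PAX5 library over the control library for each measured gene of the transporters and of 5 related lists, with filled points for counting intervals off 0 and a bar at each median. The transporter point at the far right is SLC6A12 at the floor of 3 counts, and the isolated sensing gene is CASTOR2. The medians run from -0.13 for the nucleoside salvage list to 0.03 for the glutamine list. After centring on length and level, which is not plotted, the transporters' median was -0.13 and that of the salvage list -0.09.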

How the data were processed

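RNA of GFP-sorted REH cells was sequenced. For each Entrez gene the authors deposited its length and unnormalized counts of reads. The submitters' processing notes name featureCounts and the builds hg19 and GRCh37. Aligner, strand setting and the handling of multiply matching reads: not given in the sources used here. The table of the series and the files of single libraries held the same 51404 values. Symbols came by Entrez number from RefSeq (GRCh38.p14; 23696 of 25702 features matched), also used for which genes overlap or neighbour each other.

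Scaling used TMM factors from edgeR 4.0.16 under R 4.3.3 (0.9954 with PAX5 and 1.0046 in the control, from features with at least 10 counts). With 1 library per group neither edgeR nor DESeq2 can test a gene. Exact Clopper-Pearson 95% intervals, conditional on a gene's total, came from scipy 1.17.1. They and the floor of 3 counts cover counting error only. The calculation was tested on simulated data. Every transporter with at least 10 counts was named with its values, and the rest by name, apart from an item that is not reported here; of each further list, genes past the rule were named, or up to 3 with the bounds farthest from 0 on each side. Genes outside this rule (RPTOR, SAMTOR, LAMTOR4, MLST8, markers, overlapping or neighbouring genes and near copies) were named after their values were seen. The members and lists were chosen with earlier results of these data known. Alternatives were other scalings (DESeq2 1.42.0), count minimums, size rules, centring on length and level, and an assumed variation between cultures.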

Additional observations from a re-analysis of the deposited data

How the results depend on the processing

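No sample could be left out and no paired analysis was possible because each group has 1 library. SLC6A12 was the only transporter past the rule under each scaling, count minimum, 1.5-fold bound, centring and error model tried. The 13 transporters with intervals off 0 kept their sign under the scalings and centring, though SLC29A4 had an interval including 0 after centring. With an assumed coefficient of variation of 0.2, 2 of the 13 intervals stayed off 0, that of SLC43A2 only just (lower bound 0.01). SLC6A6 changed sign on centring (-0.09) and SLC38A9 under total-count (-0.005) and upper-quartile (-0.02) scaling, all with intervals that include 0. Intervals below 0 numbered 9 under total-count and upper-quartile scaling, with SLC38A10 added, and 8 under DESeq2 factors (all features: 2618 above and 2164 below). With a point ratio at 2-fold, 1 transporter was lower (SLC6A9, 6 counts with PAX5 and 12 in the control). Among all features, 547 were then higher and 234 lower, against 355 and 47 with a bound at 1.5-fold and 113 and 4 with a minimum of 50 counts. The same minimum left 0 sensing genes past the rule, since CASTOR2 has fewer counts. With the bound at 1.5-fold, 1 gene each was higher in the lysosomal, salvage and synthesis lists. With the point ratio, 2 lysosomal genes were higher, and the salvage and synthesis lists each had 1 higher and 1 lower. Under upper-quartile scaling the lysosomal list had 2 intervals below 0 and the glutamine list 4 above. Centring on length and level gave 0 lysosomal and 5 salvage intervals below 0 and 4 glutamine intervals above; the cause was not tested. Depth limits what can be said of the 33 transporters under 10 counts.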
